A study of Homo sapiens with 6 samples.

Results

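The genes of the mTORC1 switch were followed in the human neuroblastoma line SH-SY5Y on 6 Affymetrix oligonucleotide arrays. They are DDIT4, TSC1, TSC2, RHEB, the Rag GTPase genes RRAGA, RRAGB, RRAGC and RRAGD, and MTOR itself, 9 genes of the 11963 that the array names. They were taken by gene symbol, older names included (MTOR is FRAP1 in older annotation), and all 9 were found, with 16 probe sets of 22215. In the Bf 140 nM group, 3 flasks of cells received free bilirubin at 140 nM, and in the DMSO 0.6% group 3 flasks received the solvent only. Treatment lasted 4 h. The labels describe separate flasks and biological replicates, all of one cell line, so the replicates hold no spread between donors. The genes were chosen by symbol and by pathway with their differences on these same arrays already known, that of DDIT4 (0.33) included. Member differences are therefore given as a description. Counts from the whole-table fit and its intervals stand beside them and are no test of the members.

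Bilirubin is a pigment from heme breakdown and, unconjugated, can harm neurons when it builds up in the brain. mTORC1 is the kinase complex that couples growth, protein synthesis and autophagy to nutrients and stress. Amino acids load the Rag GTPases, which work as pairs of RagA or RagB with RagC or RagD and bring the complex to the lysosome. There the small GTPase RHEB switches the kinase on. The TSC complex, in which TSC2 is the GTPase-activating protein and TSC1 the stabilizing partner, turns RHEB off. DDIT4 (also called REDD1) is a short-lived stress protein that acts through TSC to lower mTORC1 activity, and its transcription is driven by hypoxia, glucocorticoids and the ATF4 arm of the endoplasmic reticulum (ER) stress response. Much of this switch is set by protein interactions and phosphorylation, which an array of transcripts does not measure.

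Of the 9 genes, 7 had an entry in the RefSeq promoter table (build GRCh38.p14), which holds 250 bases before and 50 bases after each transcription start. RRAGA and RRAGD were not matched. The promoters of DDIT4 and RRAGC are shown because these genes had the 2 largest differences among the genes' main probe sets. Both are written in the direction of transcription. DDIT4 is at chr10:72273674-72273973 on the + strand, and RRAGC at chr1:38859723-38860022 on the - strand. Capitals mark matches on either strand to the NF-Y box (CCAAT), the E-box (CACGTG), the core of the hypoxia-response element (ACGTG), a partial CRE (TGACG) and the C/EBP-ATF composite (TGATGNAA).
DDIT4: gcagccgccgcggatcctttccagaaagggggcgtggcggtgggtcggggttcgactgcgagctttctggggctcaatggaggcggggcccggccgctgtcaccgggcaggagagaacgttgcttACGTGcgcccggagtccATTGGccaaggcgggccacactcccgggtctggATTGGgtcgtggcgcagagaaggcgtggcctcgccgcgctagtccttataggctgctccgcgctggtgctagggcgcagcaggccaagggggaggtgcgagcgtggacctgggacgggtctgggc
RRAGC: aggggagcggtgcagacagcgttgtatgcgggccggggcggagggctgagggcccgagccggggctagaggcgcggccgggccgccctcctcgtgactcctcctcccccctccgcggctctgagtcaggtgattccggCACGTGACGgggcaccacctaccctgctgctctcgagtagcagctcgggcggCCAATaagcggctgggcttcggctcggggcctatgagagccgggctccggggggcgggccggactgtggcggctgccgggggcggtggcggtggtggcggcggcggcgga

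In DDIT4, the NF-Y box lay on the reverse strand at -108 and -75 from the start, and the hypoxia core at -125. In RRAGC the E-box lay at -112, overlapping the partial CRE at -108, and the NF-Y box at -60. The E-box contains the hypoxia core on both strands, so each E-box also counts as a match to it. Of the 7 genes, 4 had the NF-Y box, 3 the E-box (TSC2, RRAGB and RRAGC) and 5 the hypoxia core. The partial CRE was in 4 and the C/EBP-ATF composite in 1, TSC2. TSC2 had more than 1 promoter entry, and all its matches to these motifs lay in the first. There the E-box at -114 overlapped the partial CRE at -117 and the composite at -110. A gene counted when any of its entries matched, while the shares below are over single promoters. Among 34796 promoters of this length, 34.6% had the NF-Y box, 7.20% the E-box, 21.4% the hypoxia core, 24.5% the partial CRE and 3.63% the composite. These matches describe the letters of the window and not binding.

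Levels are given as normalised log2 values, and each difference is the Bf 140 nM mean minus the DMSO 0.6% mean. The scale is compressed for dim probe sets, so differences of these are understated. Of the 16 probe sets, 10 had a mean above that of the median probe set (7.97) and 6 below it. Brightness depends on the probes, so levels were not ranked between genes. Arrays correlated at 0.971 to 0.996. One array stood apart in RNA completeness: the 3' probe set of beta-actin exceeded the 5' one by 2.21 on DMSO 0.6% replicate 3, against 0.10 and 0.32 on the other DMSO 0.6% arrays, while the Bf 140 nM arrays had 0.24, 0.49 and 0.89. The lowest of the 6 values was on this array for 31.9% of all probe sets and for 6 of the 16. Member and list values that changed sign or moved by more than 1.5 times without it are also given without it, and its part in the differences was not tested. Bf 140 nM replicate 3 stays in when this array is left out. Where arrays of replicate number 3 differ alike from the others, such values therefore also hold that difference. Of the noradrenergic neuroblastoma markers, GATA3 (13.03 to 13.54 over the 6 arrays) and the dopamine beta-hydroxylase gene DBH (12.39 to 13.09) were bright, whereas the tyrosine hydroxylase gene TH stayed between 6.38 and 6.71. The leukocyte marker PTPRC lay between 6.34 and 6.80 and the liver marker ALB between 6.41 and 6.55.

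No member was called in the whole-table fit. In limma, a linear model with moderated variances, 0 of 16 probe sets had an adjusted p under 0.10, where 0% of all 22215 probe sets did, and 0 of 16 had an unadjusted p under 0.05, where 17 probe sets (0.0765%) did. That count of 17 was 92 with the replicate number as a block and lay between 8 and 408 when 1 array was left out, the highest without Bf 140 nM replicate 2. All of these are smaller shares than the 0.05 that would pass with no difference anywhere. The fit thus called few probe sets of any kind, so 0 of 16, or an interval that holds 0, says little about the members. In 0 of 16 did all Bf 140 nM arrays lie above all DMSO 0.6% arrays, beside 1.68% of all probe sets, and in 0 of 16 did they all lie below, beside 0.981%. Differences were above 0 in 12 probe sets and below 0 in 4, so 75.0% were above 0, while 63.2% of all probe sets were. Their median was 0.07, and that of all probe sets 0.03. All 16 confidence intervals (95%) held 0. They also stayed within 2-fold in both directions, as did those of 97.8% of all probe sets. In bulk RNA, fewer cells expressing a gene and less transcript per cell cannot be told apart.

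**Figure D1:**
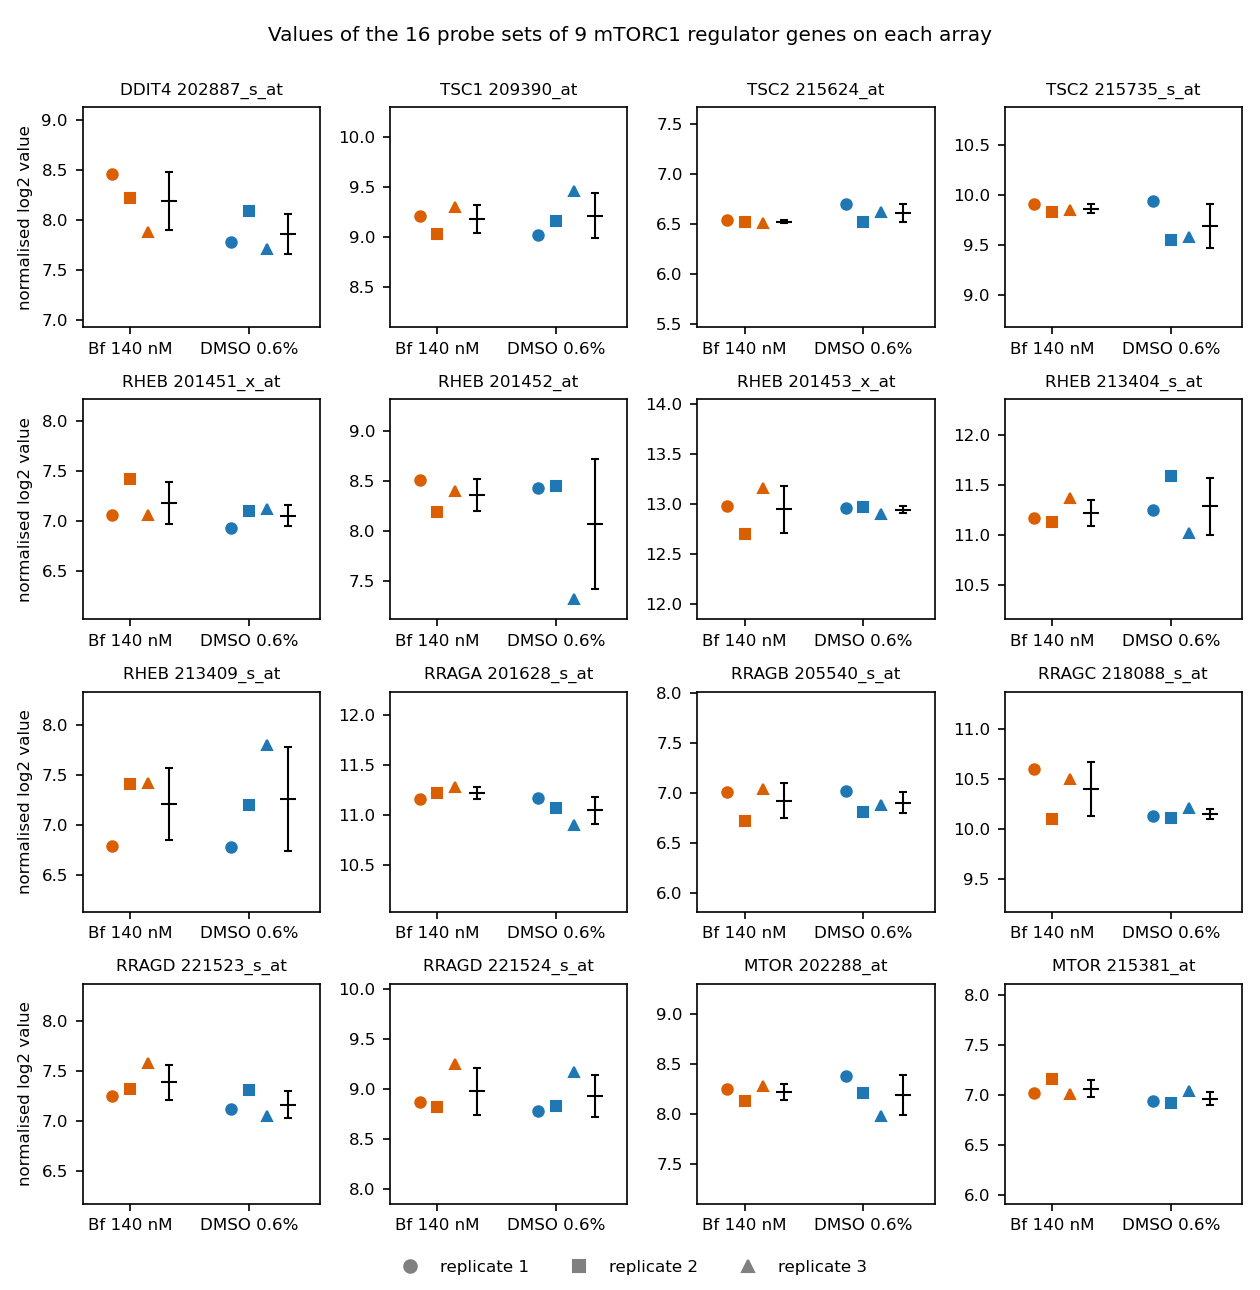
Normalised log2 values of the 16 probe sets on each array, with Bf 140 nM in orange on the left and DMSO 0.6% in blue on the right of each panel. Circles, squares and triangles are replicates 1, 2 and 3, and black bars show mean and SD (n = 3). The groups overlap in every panel, and the y axes span equal widths at different levels.

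DDIT4, the stress-responsive inhibitor upstream of TSC, had the largest difference among the members. Its values (probe set 202887_s_at) were 8.46, 8.22 and 7.88 in Bf 140 nM, against 7.78, 8.09 and 7.71 in DMSO 0.6%. The Bf 140 nM values of replicates 1 and 2 lay above all DMSO 0.6% values, while that of replicate 3 lay below DMSO 0.6% replicate 2, so the groups overlapped. The means were 8.19 ± 0.29 and 7.86 ± 0.20 (SD, n = 3 each), a difference of 0.33 (SE 0.17, 95% CI -0.08 to 0.73). On the fold scale this was 1.25 (95% CI 0.945 to 1.66).

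Within replicate numbers 1, 2 and 3 the DDIT4 difference was 0.68, 0.13 and 0.17, each above 0. The first pair therefore carried most of it, and the mean of the other pairs was 0.15. Without DMSO 0.6% replicate 3 the difference was 0.25, and without Bf 140 nM replicate 3 it was 0.48. With the replicate number as a block the interval narrowed to 0.03 to 0.62, the only 1 of the 16 member intervals to leave out 0, which 0.414% of all probe sets did. The adjusted p of DDIT4 in limma was 1.00 with the block and without it. Of all probe sets, 99.5% had a lower difference than DDIT4, a rank that belongs to the values that chose it.

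The TSC genes had differences on both sides of 0. TSC1, the stabilizing subunit, had values of 9.21, 9.03 and 9.30 in Bf 140 nM and 9.02, 9.16 and 9.46 in DMSO 0.6%. Its difference was -0.03 (SE 0.14, 95% CI -0.36 to 0.30), with 0.19 in pair 1 and -0.13 and -0.16 in pairs 2 and 3. The highest value was that of DMSO 0.6% replicate 3, and without this array the difference was 0.09, on the other side of 0.

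TSC2, the GTPase-activating subunit, was read by 2 probe sets whose differences had opposite signs. The brighter one (215735_s_at) had 9.92, 9.83 and 9.86 in Bf 140 nM, against 9.94, 9.55 and 9.59 in DMSO 0.6%. Here the Bf 140 nM arrays lay close together while DMSO 0.6% replicate 1 stood above the other DMSO 0.6% arrays, and the difference was 0.17 (SE 0.13, 95% CI -0.13 to 0.47). The dim one (215624_at) averaged 6.52 ± 0.01 in Bf 140 nM and 6.61 ± 0.09 in DMSO 0.6% (SD, n = 3 each). Its difference was -0.09 (SE 0.09, 95% CI -0.31 to 0.13). Its values, 6.51 to 6.70, lay within the range of the leukocyte marker PTPRC (6.34 to 6.80), so its sign says little about TSC2. Over the 6 arrays the TSC2 probe sets had a Pearson r of 0.19.

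RHEB, the GTPase that TSC acts on, was covered by 5 probe sets. The brightest (201453_x_at) had 12.97, 12.70 and 13.16 in Bf 140 nM, against 12.96, 12.97 and 12.90 in DMSO 0.6%. The means were 12.94 ± 0.23 and 12.94 ± 0.04 (SD, n = 3 each), with a difference of 0.00 (SE 0.13, 95% CI -0.31 to 0.31), and -0.02 without DMSO 0.6% replicate 3. The spread was on the Bf 140 nM side, where replicate 2 was the lowest and replicate 3 the highest of the 6 arrays.

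The largest RHEB difference rested on 1 array. Probe set 201452_at had 8.50, 8.19 and 8.39 in Bf 140 nM, against 8.43, 8.45 and 7.31 in DMSO 0.6%. The value of DMSO 0.6% replicate 3 lay far below the other 5, and the difference of 0.30 (SE 0.30, 95% CI -0.40 to 1.00) became -0.08 without that array. Probe set 213404_s_at had a difference of -0.06, which was -0.19 without the same array, and 201451_x_at one of 0.13.

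The last RHEB probe set, 213409_s_at, varied more between replicate numbers than between group means. It had 6.79, 7.41 and 7.42 in Bf 140 nM, against 6.78, 7.20 and 7.80 in DMSO 0.6%, a difference of -0.05 (SE 0.28), and 0.22 without DMSO 0.6% replicate 3. Replicate 1 was the lowest array in both groups. Over all 5 probe sets, 3 RHEB differences were above 0 and 2 below, and r over the 6 arrays ranged from -0.79 to 0.62 among the 10 pairs of probe sets. The RHEB probe sets therefore gave no single profile.

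Among the Rag GTPases, the 5 probe sets had differences of 0.02 to 0.25, all above 0. RRAGC, which encodes RagC, a partner of RagA or RagB in the heterodimer, had 10.59, 10.09 and 10.50 in Bf 140 nM, against 10.12, 10.11 and 10.21 in DMSO 0.6%. Replicates 1 and 3 of Bf 140 nM lay above all DMSO 0.6% arrays and replicate 2 below all of them. The difference was 0.25 (SE 0.14, 95% CI -0.09 to 0.59), or 1.19-fold (95% CI 0.940 to 1.5), with 0.47, -0.02 and 0.29 in pairs 1, 2 and 3. Without DMSO 0.6% replicate 3 it was 0.28.

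RRAGA, the gene of RagA, had 11.15, 11.22 and 11.28 in Bf 140 nM, against 11.17, 11.07 and 10.90 in DMSO 0.6%. Only DMSO 0.6% replicate 1 reached into the Bf 140 nM range. The difference was 0.17 (SE 0.11, 95% CI -0.08 to 0.42), and 0.10 without DMSO 0.6% replicate 3, the lowest array. RRAGB, which encodes the closely related RagB, averaged 6.92 ± 0.18 in Bf 140 nM and 6.90 ± 0.11 in DMSO 0.6% (SD, n = 3 each), a difference of 0.02 (SE 0.12, 95% CI -0.27 to 0.31), and 0.01 without that array.

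RRAGD, whose product RagD can take the place of RagC, had 2 probe sets. The brighter one (221524_s_at) had 8.86, 8.81 and 9.24 in Bf 140 nM, against 8.78, 8.83 and 9.16 in DMSO 0.6%. Replicate 3 was the highest array in both groups, and the difference was 0.05 (SE 0.16, 95% CI -0.32 to 0.42). This difference was 0.03 without replicate pair 3 and 0.17 without DMSO 0.6% replicate 3. The dimmer one (221523_s_at) had 7.26, 7.32 and 7.59 in Bf 140 nM, against 7.13, 7.31 and 7.05 in DMSO 0.6%. Its difference was 0.22 (SE 0.13, 95% CI -0.07 to 0.52), above 0 in all 3 pairs (0.13, 0.01 and 0.53), as it was for DDIT4. These were 2 of the 16 probe sets, while 8.96% of all probe sets were above 0 in all 3 pairs. Over the 6 arrays the RRAGD probe sets had an r of 0.32.

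MTOR, the kinase itself, had differences smaller than or about as large as the spread between arrays. Probe set 202288_at had 8.25, 8.13 and 8.28 in Bf 140 nM, against 8.38, 8.21 and 7.98 in DMSO 0.6%, a difference of 0.03 (SE 0.13, 95% CI -0.27 to 0.33). The highest and the lowest array were both DMSO 0.6% ones, and without replicate 3 of that group the difference was -0.08. Probe set 215381_at averaged 7.06 ± 0.08 in Bf 140 nM and 6.96 ± 0.06 in DMSO 0.6% (SD, n = 3 each), a difference of 0.10 (SE 0.10, 95% CI -0.13 to 0.33). The MTOR probe sets had an r of -0.50 over the 6 arrays.

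**Figure D2:**
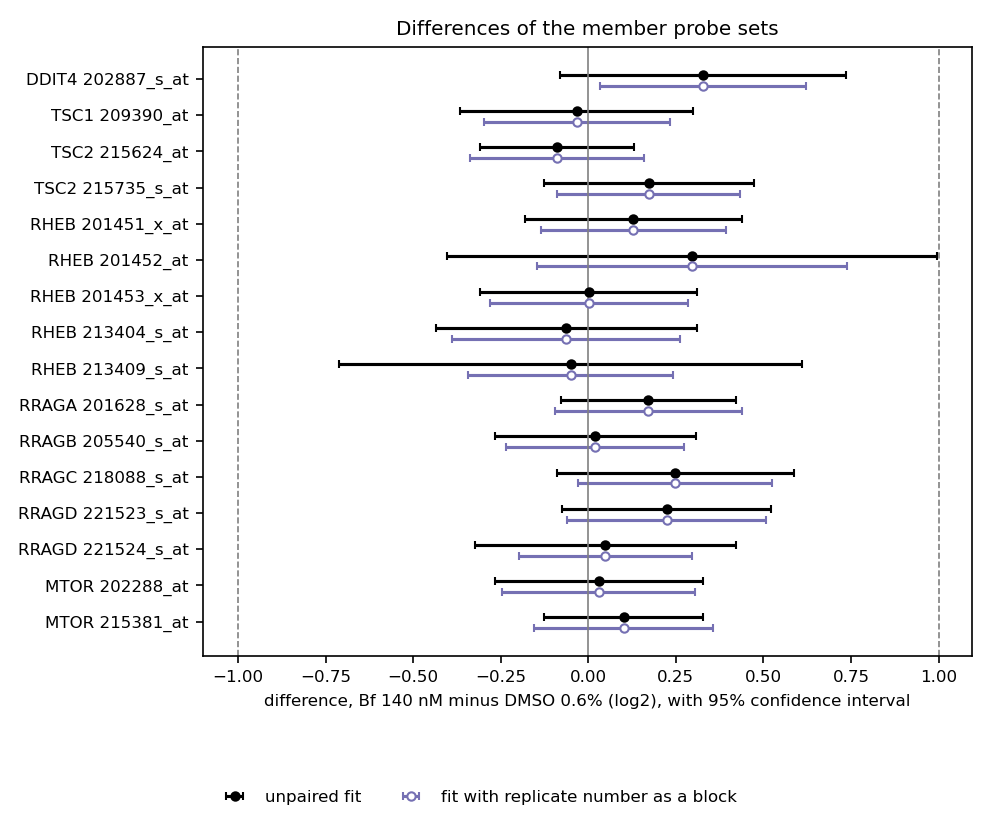
Differences of the 16 probe sets (Bf 140 nM minus DMSO 0.6%, log2) with 95% confidence intervals, unpaired in black and with the replicate number as a block in violet; dashed lines mark 2-fold. Every unpaired interval crosses 0, and with the block the interval of DDIT4 (0.03 to 0.62) does not.

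The size of the differences depended on the replicate pair. Over the 16 probe sets the median difference was 0.04 in pair 1, -0.01 in pair 2 and 0.21 in pair 3, where all probe sets had 0.03, -0.00 and 0.04. Differences were above 0 in 10, 8 and 11 of the 16 probe sets in pairs 1, 2 and 3. Pair 3 holds the DMSO 0.6% array with the large beta-actin ratio. Without this array the median over the 16 was 0.11, with 11 above 0, and 5 probe sets changed sign, namely TSC1, MTOR 202288_at and RHEB 201452_at, 201453_x_at and 213409_s_at. These 5 also had the other sign with the whole of pair 3 left out. Over all 22215 probe sets the median without that array was 0.01, with 11828 above 0 and 7390 that changed sign.

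**Figure D3:**
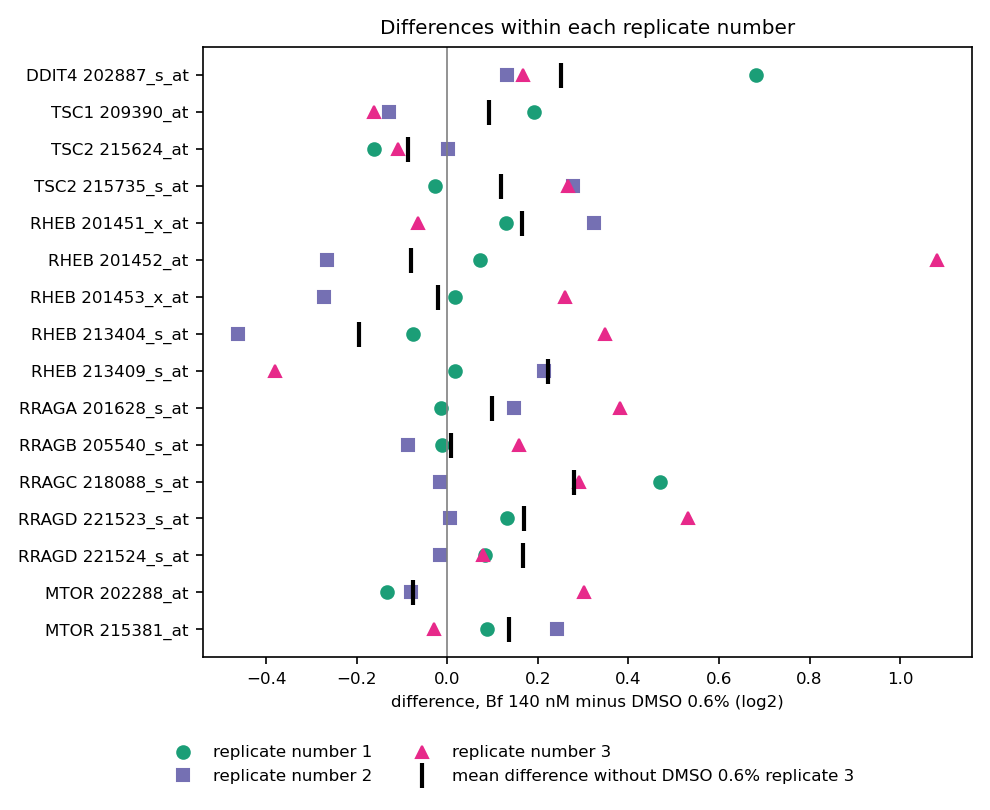
Differences (Bf 140 nM minus DMSO 0.6%, log2) of each probe set within replicate numbers 1, 2 and 3, with black ticks for the mean difference without DMSO 0.6% replicate 3. Only DDIT4 and RRAGD 221523_s_at lie above 0 in all 3 pairs, and the point farthest from 0 is RHEB 201452_at in pair 3 (1.08).

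Probe sets of 1 gene did not always share a sign. For the 4 genes with more than 1 probe set, 6 of 13 pairs of probe sets had differences of the same sign. Of these pairs, 10 were among the 5 RHEB probe sets and so were not independent. The RRAGD and MTOR pairs shared a sign, and the TSC2 pair did not. The share over other genes was not counted. Which transcripts each probe set reads was not examined.

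The other genes of the pathway were described in 6 lists, of which 63 genes had a probe set. In none of the lists did a gene pass an adjusted p of 0.10. Of the 63 genes, 44 had a difference above 0 and 19 below, with a median of 0.06, beside 63.7% above 0 and a median of 0.03 over all 11963 genes. Without DMSO 0.6% replicate 3 the median was 0.01, 34 were above 0 and 20 changed sign. Over all 11963 genes the median was then also 0.01, with 6730 above 0 and 3785 that changed sign. The groups did not overlap in 2 of the 63, NPRL3 and DDIT3, both higher in Bf 140 nM. This is 3.17% of the 63, where 1.84% of all genes did not overlap and were higher and 0.828% did not overlap and were lower.

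Subunits of the mTOR complexes had 8 of 11 listed genes on the array, 6 above and 2 below 0, with a median of 0.06. Without DMSO 0.6% replicate 3, 3 were above 0 and the median was -0.01. MLST8, the subunit common to both complexes, had a difference of 0.13 (SE 0.13), which was 0.04 without that array, and DEPTOR, an inhibitory subunit, 0.01 (SE 0.11), or -0.00 without it. MAPKAP1, which encodes SIN1 of mTORC2, had 9.56, 9.43 and 9.28 in Bf 140 nM, against 9.65, 9.57 and 8.53 in DMSO 0.6%. Its difference was 0.17 with all arrays, -0.11 without replicate pair 3 and -0.19 without DMSO 0.6% replicate 3.

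The lysosomal scaffold that anchors the Rag GTPases, with FLCN, the GTPase-activating protein for RagC and RagD, had 5 of 10 listed genes on the array, 4 above and 1 below 0, with a median of 0.03, or 0.01 without DMSO 0.6% replicate 3. LAMTOR2, LAMTOR3 and LAMTOR5, subunits of the Ragulator scaffold, had differences of 0.17, 0.01 and 0.03. Without that array they were 0.04, 0.01 and -0.00. GATOR, KICSTOR and the amino acid sensors, which set the nucleotide state of RagA and RagB, had 10 of 18 on the array, 7 above and 3 below 0. The GATOR1 subunit genes DEPDC5, NPRL2 and NPRL3 had differences of -0.04, 0.08 and 0.14, and of -0.02, 0.14 and 0.11 without DMSO 0.6% replicate 3. NPRL3 had 8.88, 8.96 and 9.05 in Bf 140 nM, against 8.83, 8.87 and 8.76 in DMSO 0.6%. The groups nearly touched, at Bf 140 nM replicate 1 and DMSO 0.6% replicate 2.

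Growth factor and energy inputs to TSC (PI3K, AKT and AMPK genes) had 18 of 24 listed genes on the array, 14 above and 4 below 0, with a median of 0.08. Without DMSO 0.6% replicate 3 the median was 0.02, 12 were above 0 and 8 changed sign. AKT1, the kinase that inactivates TSC2, had 10.13, 10.56 and 9.84 in Bf 140 nM, against 10.27, 10.36 and 9.26 in DMSO 0.6%. Its difference of 0.22 (SE 0.31) was 0.04 without replicate pair 3, and -0.13 without DMSO 0.6% replicate 3. AKT2 had 0.01 (SE 0.11), or -0.03 without that array, and PDPK1, the kinase upstream of AKT, 0.11 (SE 0.18).

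Substrates and outputs of mTORC1 had 14 of 17 listed genes on the array, 8 above and 6 below 0, with a median of 0.02. Without DMSO 0.6% replicate 3, 6 were above 0 and the median was -0.01. RPS6KB1, which encodes the S6 kinase, had a difference of 0.11 (SE 0.16), and EIF4EBP1, the translational repressor that mTORC1 phosphorylates, 0.14 (SE 0.12), which was 0.04 without that array. TFEB, the lysosomal transcription factor kept out of the nucleus by mTORC1, had -0.08 (SE 0.12). Transcript levels of these genes do not report on their phosphorylation.

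Transcription factors known to drive DDIT4 were the list with the highest median, 0.11, with 8 of 9 listed genes on the array, 5 above and 3 below 0. Without DMSO 0.6% replicate 3 the median was -0.05 and 2 were above 0. DDIT3, which encodes the CHOP factor of ER stress, had 8.86, 8.80 and 8.72 in Bf 140 nM, against 8.42, 8.59 and 8.59 in DMSO 0.6%. Every Bf 140 nM array lay above every DMSO 0.6% array, and the difference was 0.26 (SE 0.10, 95% CI 0.03 to 0.50), with an adjusted p of 1.00 in limma.

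CEBPB, a partner of ATF4 on stress promoters, had 9.95, 9.93 and 9.85 in Bf 140 nM, against 9.51, 9.91 and 9.53 in DMSO 0.6%, a difference of 0.26 (SE 0.13, 95% CI -0.05 to 0.56). DMSO 0.6% replicate 2 was level with the Bf 140 nM arrays, as it was the highest DMSO 0.6% array for DDIT4. ATF4, the main transcription factor of the integrated stress response, had a difference of 0.20 (SE 0.20). This difference was 0.04 without replicate pair 3 and -0.03 without DMSO 0.6% replicate 3. Over the 6 arrays, r with DDIT4 was 0.84 for CEBPB, 0.78 for DDIT3 and 0.74 for ATF4, which describes 6 points that share the arrays' quality. They are the first 3 genes of the list with a probe set. For the others, among them HIF1A, ARNT and NR3C1, the 3 with differences below 0, r is not given, nor is r over all genes. The r values given therefore do not describe the list.

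A list of mTOR and autophagy genes was taken from the text on the 24-h arrays, which were not used here. All 6 were on the array. At 4 h, 4 of them were above 0 and 2 below, with a median of 0.03 (0.05 without DMSO 0.6% replicate 3), and none passed the threshold. NIBAN1, a stress-responsive regulator of translation, had a difference of -0.08 (SE 0.25). This difference was -0.02 without replicate pair 3 and 0.06 without DMSO 0.6% replicate 3. The autophagosome gene GABARAPL1 had 0.09 (SE 0.11), and GABARAPL3, annotated as a transcribed pseudogene, 0.04 (SE 0.10), or 0.06 without that array. Another probe set of the array is annotated to both GABARAPL1 and GABARAPL3, so their signals may not be separate. Each gene was read by its brightest probe set with 1 symbol, which need not be the one listed at 24 h.

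The genes with profiles most like that of DDIT4 over the 6 arrays were sought among 6976 brighter and more variable probe sets. They were TMEM97 (r = 0.98), ADPRM (0.94), WIPI1 (0.91), SAV1 (0.90) and HDLBP (0.89). For TMEM97, the sigma-2 receptor gene, the values were 11.50, 11.35 and 11.12 in Bf 140 nM, against 11.15, 11.27 and 10.99 in DMSO 0.6%. After each group's mean was removed, r with DDIT4 was still 0.97 for TMEM97 and 0.96 for SAV1, so the likeness lay within the groups as well as between them.

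WIPI1, an early autophagosome protein gene, entered through 1 of its probe sets (203827_at). Its brighter probe set (213836_s_at) had an r of 0.26 with DDIT4. With 6 arrays and so many candidates, such r values are a description of these arrays.

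RRAGC, with the widest range after DDIT4 among the genes' brightest probe sets, was most like FAM149B1 (r = 0.98), SLC35A5 (0.97), KPNA3 (0.96), CEP68 (0.95) and ALDH6A1 (0.95). All 5 were, like RRAGC, lowest on Bf 140 nM replicate 2. For KPNA3, an importin gene, the values were 10.02, 9.59 and 10.00 in Bf 140 nM, against 9.61, 9.72 and 9.65 in DMSO 0.6%.

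**Figure D4:**
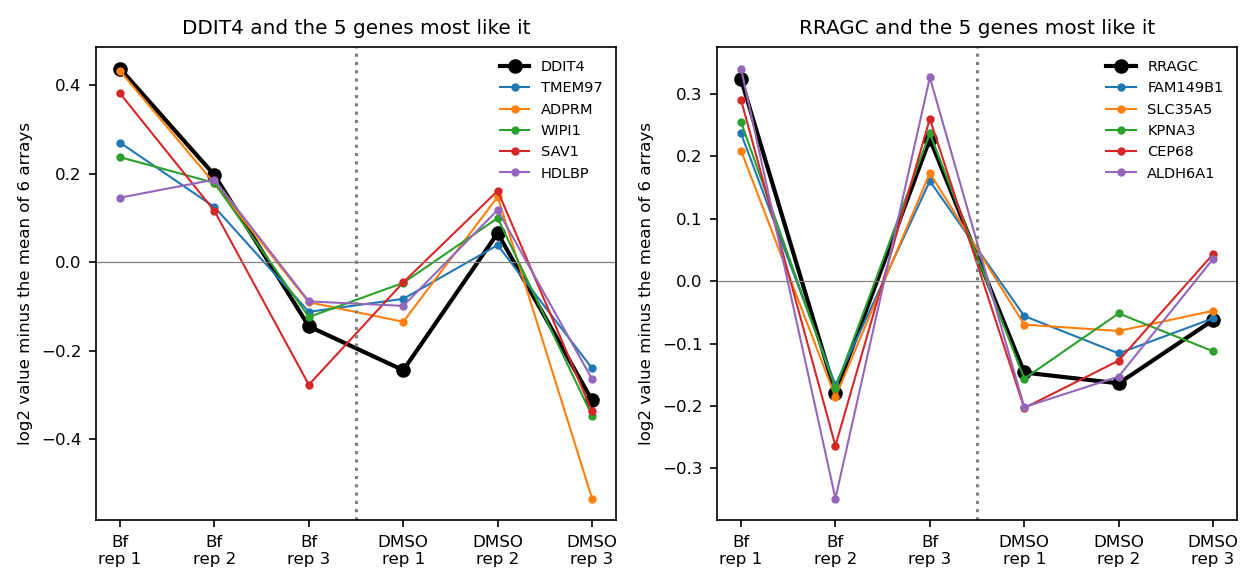
Log2 values minus the mean of the 6 arrays for DDIT4 (left) and RRAGC (right) in black, each with its 5 most similar genes in colour; Bf 140 nM arrays stand left of the dotted line and DMSO 0.6% arrays right of it. The DDIT4 profiles are highest on Bf 140 nM replicates 1 or 2 and lowest on DMSO 0.6% replicate 3, and the RRAGC profiles are lowest on Bf 140 nM replicate 2.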

How the data were processed

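The 6 arrays, 3 per group, were deposited as a table of normalised log2 values. The authors computed intensities in GCOS and applied variance-stabilizing normalization (justvsn) in R version 2.5.0, which compresses differences of dim probe sets. How probe signals were summarised was not given in the sources used here. Of 22277 probe sets, 62 controls were left out. Through the platform annotation and RefSeq symbols, 19064 had 1 gene symbol, 1043 several and 2108 none, and the first kind was named. A gene was represented by its brightest probe set.

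Differences (Bf 140 nM minus DMSO 0.6%) came from an unpaired two-sided limma fit (version 3.58.1, R version 4.3.3) over all probe sets, with Benjamini-Hochberg adjustment and a threshold of 0.10, after the study's FDR. The study's SAM was not rerun. The code was checked on simulated data with independent noise for each probe set. Those data lacked the likeness of same-numbered arrays, so they do not show how the fit behaves on these arrays. Arrays carry no read depth, and their number limits the precision.

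Members and lists were chosen with earlier results of these data known. Named genes were all members, the first 3 genes of each pathway list with a probe set, and the 5 genes most correlated with DDIT4 and with the other member of widest range, among probe sets with 1 symbol and with mean and SD above the median probe set. Marker genes given by value were chosen after their values were seen. Both groups share replicate numbers 1, 2 and 3. Deviations of same-numbered arrays from their group means correlated at 0.60, 0.23 and 0.57 over probe sets, each above 0.1, so the numbers were taken to pair the arrays. Alternatives were this block, quantile normalization, median centring, a filter on the mean, the beta-actin ratio as a covariate, other probe sets of a gene, and leaving out arrays or pairs.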

Additional observations from a re-analysis of the deposited data

How the results depend on the processing

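No probe set of the whole table passed an adjusted p of 0.10 in limma under any alternative run, nor at 0.05 or 0.20, and with the replicate block the count was also 0. The number at an unadjusted p under 0.05 was 17 as reported, 92 with the replicate block, 62 after quantile normalization, 6 after median centring, 0 with the filter on the mean and 43 with the beta-actin covariate, and lay between 8 and 408 with 1 array left out, the highest without Bf 140 nM replicate 2. Differences of DDIT4, RRAGA and RRAGC stayed above 0 in all 13 alternatives of each, at 0.15 to 0.48, 0.07 to 0.26 and 0.14 to 0.40. These alternatives reuse the same 6 arrays, and the replicate block leaves every difference unchanged, so the tally is a description and no independent support. DDIT4 was lowest, at 0.15, without replicate pair 1. The sign turned in 5 of 13 alternatives for TSC1 and RRAGB, 6 of 15 for RHEB and MTOR and 3 of 15 for RRAGD. For TSC2 it turned in 1 of 15, where the dim probe set at the level of PTPRC gave -0.09. With 3 arrays per group, and few probe sets under the unadjusted threshold at any setting, differences as small as these could not be separated from 0 over the whole table.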

Other observations

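Some pathway and marker genes differed more between replicate numbers than between groups. They were chosen after their values were seen. EPAS1, which encodes the hypoxia factor HIF-2alpha, had 10.61, 9.32 and 8.86 in Bf 140 nM replicates 1, 2 and 3, against 10.50, 9.42 and 8.47 in DMSO 0.6% replicates 1, 2 and 3. The collagen gene COL3A1, a mesenchymal marker, had 11.05, 10.15 and 9.71 in Bf 140 nM, against 10.95, 10.37 and 9.33 in DMSO 0.6%. In both genes the same-numbered arrays lay close together. The differences between groups were 0.13 (SE 0.59) for EPAS1 and 0.08 (SE 0.46) for COL3A1. Without replicate pair 3 they were 0.00 and -0.06. Leaving out DMSO 0.6% replicate 3 alone gave -0.37 and -0.36, with the low Bf 140 nM replicate 3 left unmatched. NIBAN1 was the lowest on replicate 1 in both groups, at 7.62 in Bf 140 nM and 7.56 in DMSO 0.6%, while its other values lay between 8.17 and 8.37.

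Among the lists of cell markers, 9 mesenchymal or Schwann-like genes had a median difference of -0.03 (-0.05 without DMSO 0.6% replicate 3), with 3 above and 6 below 0, and 12 noradrenergic genes one of 0.06, with 9 above and 3 below 0. The 5 blood and liver markers had a median of 0.01. None of these genes passed an adjusted p of 0.10 in limma. The groups did not overlap in 1 of these markers, S100B, where 0.828% of all genes were lower without overlap and 1.84% higher. S100B was at 7.26, 7.31 and 7.33 in Bf 140 nM, against 7.36, 7.34 and 7.43 in DMSO 0.6%.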
